A study of Mus musculus with 2 samples.

Results

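Islet macrophages were 345 of the 15958 cell barcodes in a single-cell RNA sequencing study of pancreatic islets from NOD mice, a strain that develops autoimmune diabetes. There were 164 macrophages among 8200 barcodes in the library of mice fed 16% HC with 4% gluten, and 181 among 7758 barcodes in the library of mice fed 20% HC (the HC-only library). The labels do not expand HC. Both libraries came from NOD/ShiLtJ mice of the wild-type NOD genotype at 15 weeks of age, each pooled the cells of 3 mice, and the islets of Langerhans had been freed by collagenase P perfusion, purified on a Histopaque gradient, handpicked and dissociated with trypsin-EDTA. With 1 pooled library per diet, the diet, the mice and the preparation cannot be told apart, the values below have no replicate check, and no test was made. Intervals are exact 95% intervals and cover counting error only.

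A macrophage was a barcode with at least 1500 unique molecular identifiers (UMIs, each standing for 1 captured mRNA molecule), at least 200 genes, no more than 20% mitochondrial UMIs, less than 10% of UMIs from the hormone genes Ins1, Ins2, Gcg, Sst and Ppy, at least 10 UMIs of C1qa, C1qb and C1qc together, and no more than 1 UMI each of the T cell genes Cd3d, Cd3e and Cd3g together and of the B cell genes Cd79a and Ms4a1 together. The C1q genes therefore describe the choice and are no finding. The macrophages had a median of 147.5 C1q UMIs (11 to 530) in the gluten library and 260 (10 to 982) in the HC-only library.

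Resident macrophages of the islet sit next to the capillaries and the beta cells, take up beta cell material and present its peptides on MHC class II molecules to T cells. In NOD mice they are among the first leukocytes of the islet and are known from depletion to be needed for the autoimmune attack. When a macrophage senses microbial products, dying cells or cytokines, NF-kappa-B and AP-1 transcription factors switch on a fast set of genes for chemokines and for TNF within the first hours, whereas interferon gamma from T cells acts on another set that includes Cxcl9, Cxcl10 and MHC genes.

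Macrophage markers that the rule did not use were present, but so were some dendritic cell markers, which are given at the end of this section. Every one of the 345 barcodes held a UMI of Lyz2, Ms4a7 or Adgre1, which encode lysozyme 2, a membrane protein of tissue macrophages and the antigen F4/80. Lyz2 was seen in 161 of 164 macrophages with gluten and 181 of 181 with HC only, Ms4a7 in 135 and 148, and Adgre1 in 107 and 112. Of 8 monocyte markers, Ccr2 had 77 UMIs with gluten and 247 with HC only and Plac8 74 and 216. Ly6c2 had 1 and 9 and Chil3 0 and 2. F13a1, with 22 UMIs with gluten and 9 with HC only, and Vcan, with 2 and 1, went the other way. Of 6 neutrophil markers, Csf3r had 49 UMIs with gluten and 121 with HC only, and Mmp9 had 16 and 7. S100a8 and S100a9 together had 0 and 1. Just inside the edge of the rule, with 10 to 14 C1q UMIs, stood 3 barcodes of each library, of which 0 with gluten and 1 with HC only held Ms4a7. Just outside it, with 5 to 9 C1q UMIs, stood 2 barcodes of the gluten library and 5 of the HC-only library, of which 0 and 2 held Ms4a7 and 0 and 0 held Adgre1.

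The libraries held 88268070 UMIs with gluten and 116900677 with HC only over the barcodes given, and 15 barcodes occurred in both libraries, of which 0 and 1 were macrophages of the gluten and the HC-only library. The macrophages of the gluten library were shallower: 7193.5 UMIs per cell (median, range 1541 to 28953), against 12439 (1700 to 32597) with HC only. They held 3.75% mitochondrial UMIs and 0.71% hormone UMIs (medians) with gluten, against 3.12% and 0.48% with HC only. Genes of the exocrine acinar cells summed to 250 counts per 1000000 UMIs (CPM) in macrophages with gluten and 50.6 CPM with HC only, and 8 macrophages with gluten and 0 with HC only held at least 10 acinar UMIs. Macrophages were 2.38% (2.03 to 2.77) of the 6896 barcodes that passed the depth filters with gluten and 2.52% (2.17 to 2.91) of the 7189 with HC only, a difference of -0.14 percentage points (-0.65 to 0.37). Among barcodes under the hormone limit they were 4.76% (4.08 to 5.53) of 3443 with gluten and 4.21% (3.63 to 4.86) of 4298 with HC only, and the difference was 0.552 percentage points (-0.371 to 1.499). With hormones limited to 2% of UMIs in place of 10%, that difference was 2.02 percentage points (0.929 to 3.17), so whether it exceeds counting error depends on this limit.

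Below, a gene's level is its UMIs summed over the macrophages of a library, per 1000000 of their UMIs (CPM), from 1299510 UMIs with gluten and 2251518 with HC only, and log2 ratios are gluten over HC only. A gene was called apart when it differed at least 2-fold and had 50 or more UMIs in the library where it was higher. Of 4351 genes with that depth, 121 (2.78%) were apart and higher with gluten and 90 (2.07%) apart and lower. Because the HC-only macrophages held more UMIs, 50 UMIs stand for a lower CPM there. The counts of higher and lower genes were therefore called at unlike levels. Without the macrophage that held most UMIs of each gene, 113 of the 121 and 88 of the 90 still differed at least 2-fold. That count did not ask again for 50 UMIs, so some of these genes rest on few UMIs. With the 50-UMI limit applied anew to all genes, 105 were apart and higher with gluten and 90 apart and lower. For gene lists, where every gene with at least 10 UMIs over both libraries was counted, 609 of 10223 genes (5.96%) had a CPM 2-fold or more above HC only and 632 (6.18%) 2-fold or more below it. The median log2 ratio of those 10223 genes was -0.07. These shares are the background for the list counts below, and no list was tested against them.

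**Figure D1:**
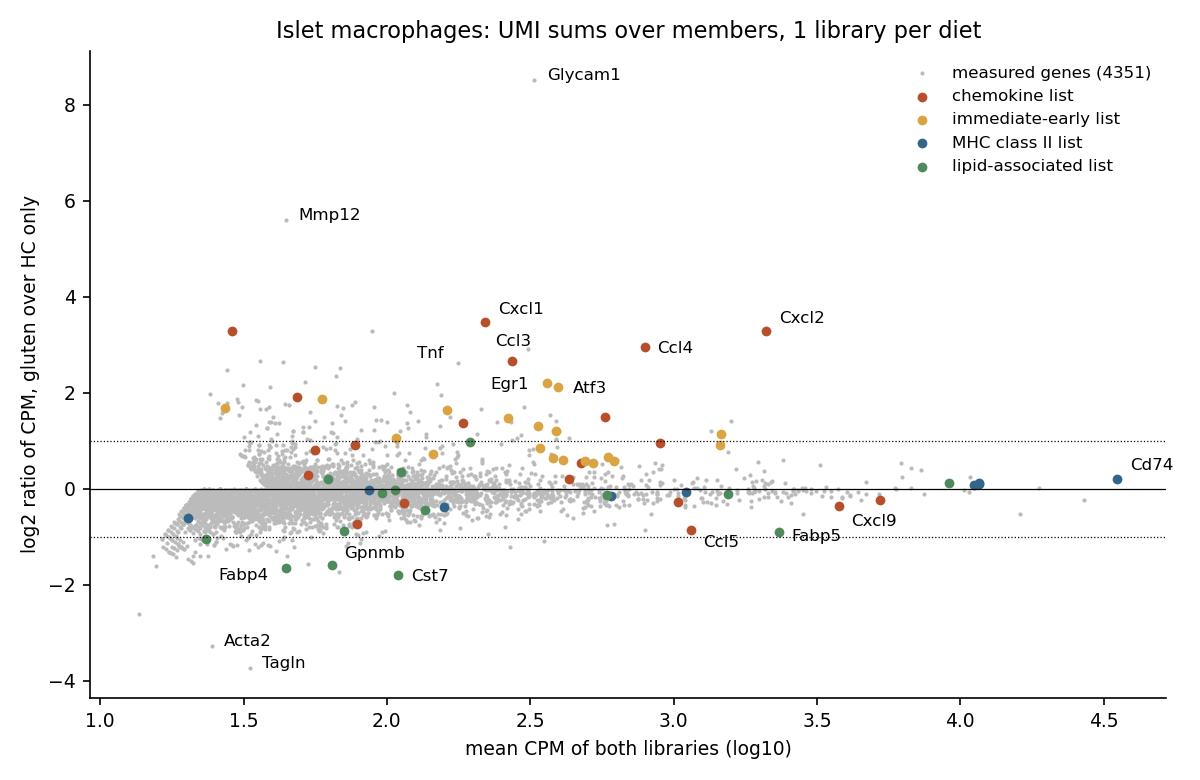
Level and difference of every gene with 50 UMIs or more in the macrophages of the library where it was higher. The horizontal axis is the mean CPM of both libraries on a log10 scale and the vertical axis the log2 ratio of gluten over HC only; each point is 1 of 4351 genes, with 4 gene lists coloured. Cxcl1, Cxcl2 and Ccl4 stand between 2.96 and 3.47 on the log2 scale, and the abundant MHC class II genes lie near 0.

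Chemokines were among the genes furthest apart. Cxcl2 and Cxcl1, which attract neutrophils through the receptor Cxcr2, and Ccl4 and Ccl3, which attract monocytes and T cells, had CPM between 6.37-fold (Ccl3) and 11.1-fold (Cxcl1) higher in macrophages of the gluten library, whereas the interferon-gamma-induced Cxcl9 was slightly lower. Cxcl2 (chr5:90903871-90905938 in GRCm38) had 4967 UMIs with gluten and 882 with HC only, or 3822 CPM against 392 CPM, a log2 ratio of 3.29 (3.18 to 3.39). It was found in 125 of 164 macrophages with gluten (76.2%) and 78 of 181 with HC only (43.1%), so no single cell carried the difference. Its neighbour Cxcl1 (chr5:90891241-90893115) had 405 CPM with gluten and 36.4 CPM with HC only, a log2 ratio of 3.47 (3.14 to 3.83). Ccl4 (chr11:83662584-83664683) had 1407 CPM with gluten and 181 CPM with HC only, a log2 ratio of 2.96 (2.81 to 3.12). Ccl3, which lies close to Ccl4 at chr11:83647844-83649355, had 472 CPM with gluten and 74.2 CPM with HC only, a log2 ratio of 2.67 (2.42 to 2.93). Both genes of each neighbouring pair were thus higher together.

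The promoters of 4 of the CXC chemokine genes on chromosome 5 are shown here because Cxcl1 and Cxcl2 stood far apart between the libraries while Cxcl9 and Cxcl10, which lie further along the same chromosome, did not. Each is the 150 bases before the RefSeq start of the gene in GRCm38.p6, 5′ to 3′ on the strand of the gene, and capitals mark matches on either strand to the NF-kappa-B motif, read as GGG, any 3 bases and TTCC. The windows are chr5:90891095-90891244 for Cxcl1 and chr5:90903749-90903898 for Cxcl2, both on the plus strand, and chr5:92348890-92349039 for Cxcl10 and chr5:92328080-92328229 for Cxcl9, both on the minus strand.
Cxcl1: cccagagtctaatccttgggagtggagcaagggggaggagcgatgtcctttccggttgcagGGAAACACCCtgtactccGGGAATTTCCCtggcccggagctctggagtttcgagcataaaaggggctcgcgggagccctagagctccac
Cxcl2: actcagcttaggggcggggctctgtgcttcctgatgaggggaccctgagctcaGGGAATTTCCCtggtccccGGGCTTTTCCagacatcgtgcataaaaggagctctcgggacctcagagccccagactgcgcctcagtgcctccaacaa
Cxcl10: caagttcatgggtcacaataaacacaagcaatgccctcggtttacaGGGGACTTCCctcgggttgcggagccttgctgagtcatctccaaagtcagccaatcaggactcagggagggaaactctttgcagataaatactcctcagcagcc
Cxcl9: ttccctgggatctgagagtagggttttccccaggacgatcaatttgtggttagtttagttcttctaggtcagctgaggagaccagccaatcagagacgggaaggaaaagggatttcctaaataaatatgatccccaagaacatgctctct
The motif had 3 matches in each of the Cxcl1 and Cxcl2 windows, counting those that overlap on the 2 strands, and 1 in the Cxcl10 window. It was found in 3.05% of 32851 promoter windows of the same length. The Cxcl10 window also held the AP-1 motif TGANTCA (N is any base), found in 4.24% of windows. The letters of the NF-kappa-B motif were not in the windows of Cxcl9, Ccl3 (chr11:83649379-83649528) or Tnf (chr17:35202008-35202157), and a match or its lack is a description of these letters and not of binding.

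Other chemokines ranged from higher with gluten to lower. Of the 21 chemokine genes listed with at least 10 UMIs, 8 were 2-fold or more higher with gluten and 1 lower, with a median log2 ratio of 0.81 (-0.28 to 1.91, an interval over genes) against -0.07 for all genes. Ccl2 and Ccl7, which call monocytes through Ccr2, had 265 and 77.0 CPM with gluten, against 102.6 and 20.4 CPM with HC only. Ccrl2, a receptor that holds chemerin at the cell surface without signalling, had 855 CPM with gluten and 301 CPM with HC only. Ccl24 had a log2 ratio of 3.30, but 61.8% of its 68 UMIs with gluten came from 1 macrophage. Ccl22, a ligand of Ccr4 and a marker of mature dendritic cells, was the lower one, with 1 UMI with gluten and 14 UMIs with HC only, a log2 ratio of -3.01 (-8.42 to -0.30).

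The ligands of Cxcr3, a chemokine receptor of T cells, and some other abundant chemokines stayed within 2-fold, unlike Cxcl2 and Ccl4. Cxcl9 had 3309 CPM with gluten and 4213 CPM with HC only, a log2 ratio of -0.35 (-0.40 to -0.30). Cxcl10 had 1183 CPM with gluten and 608 CPM with HC only, a log2 ratio of 0.96 (0.85 to 1.07), so the pair lay on opposite sides of 0. Ccl8, in the mouse a ligand of Ccr8 and the most abundant chemokine here, had 4811 CPM with gluten and 5682 CPM with HC only. Ccl5 had 816.5 CPM with gluten and 1481 CPM with HC only, Cxcl16 934 and 1131 CPM, and Pf4 562.5 and 384.6 CPM in the same order. Of these 6 genes, 2 had a log2 ratio above 0 and 4 below it. Cxcl13, which was not in the list of chemokine genes, had 3013 UMIs with gluten and 7488 with HC only.

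Inflammatory cytokines were higher in part. Tnf (chr17:35199381-35202007), which encodes tumour necrosis factor, had 397 UMIs with gluten and 111 with HC only, or 305 CPM against 49.3 CPM, a log2 ratio of 2.63 (2.32 to 2.95). Nlrp3, the sensor of the inflammasome that activates interleukin 1 beta, had 117 CPM with gluten and 20.4 CPM with HC only, a log2 ratio of 2.52 (2.03 to 3.03). Il1b, whose product the inflammasome cleaves, had 755 CPM with gluten and 552 CPM with HC only, a log2 ratio of only 0.45 (0.33 to 0.57). The list of inflammatory cytokine genes also holds Nlrp3 and Ptgs2, which are not cytokines. Among its 15 genes measured, 5 were 2-fold or more higher with gluten and 1 lower, with a median of 0.45 (0.14 to 1.87). Besides Tnf and Nlrp3 the higher ones were Il10, an anti-inflammatory cytokine, at 27 and 11 UMIs in the gluten and HC-only library, Il1a at 61 and 29 UMIs, and Ptgs2, the inducible cyclooxygenase, at 116 and 34.6 CPM. Tnfsf9, at 5 UMIs with gluten and 18 with HC only, was the lower one. Il6, with 4 and 5 UMIs, Il23a, with 4 and 4, and Nos2, with 1 and 1, were close to the limit of detection in both libraries.

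Counted per cell at equal depth, the same genes were found in more macrophages of the gluten library and at higher numbers. Each macrophage was thinned at random to 1500 UMIs, which loses no cell. At that depth 133 of 164 macrophages with gluten (81.1%, 74.3 to 86.8) and 81 of 181 with HC only (44.8%, 37.4 to 52.3) held a UMI of Cxcl1, Cxcl2, Ccl3, Ccl4 or Tnf, a difference of 36.3 percentage points (26.5 to 45.2). These genes were put together because they were apart, so the difference is a description. B cells, shown for comparison, reached 3.59% with gluten and 2.26% with HC only. How much of these shares was free RNA was not tested. At least 5 UMIs of this set were found in 95 macrophages with gluten (57.9%) and 8 with HC only (4.42%). The median macrophage held 7 of these UMIs with gluten and 0 with HC only, and the highest held 97 and 9. The difference was thus spread over most of the gluten macrophages, and the libraries overlapped at the low end.

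Single genes of that set followed it. Cxcl2 was found in 67.1% of thinned macrophages with gluten and 24.3% with HC only, 42.8 percentage points apart (32.7 to 51.6), against 1.44% and 0% (0 to 0.347) of B cells. Ccl4 was found in 53.7% and 20.99%, and Ccl3 in 40.2% and 5.52%, of macrophages with gluten and HC only. Tnf was found in 29.3% with gluten and 7.18% with HC only, and Cxcl1 in 19.5% and 2.76%. Nlrp3 was found in 14.02% with gluten and 1.66% with HC only. The share of macrophages with Il1b, 52.4% with gluten and 41.4% with HC only, differed by 11.003 points with an interval that reached down to 0.469. Cxcl9 went the other way, at 57.9% with gluten and 72.9% with HC only, and Cxcl9 or Cxcl10 was found in 69.5% and 76.8%, a difference of -7.28 points whose interval (-16.6 to 2.05) includes 0. Without thinning, where the deeper HC-only cells have more chance to show a gene, Ccl4 was found in 67.7% of macrophages with gluten and 38.1% with HC only, Ccl3 in 57.3% and 29.8%, Tnf in 63.4% and 30.9%, Cxcl1 in 31.7% and 11.6%, Nlrp3 in 42.1% and 17.7%, Il1b in 73.2% and 70.7%, and Cxcl9 in 69.5% and 89.5%.

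**Figure D2:**
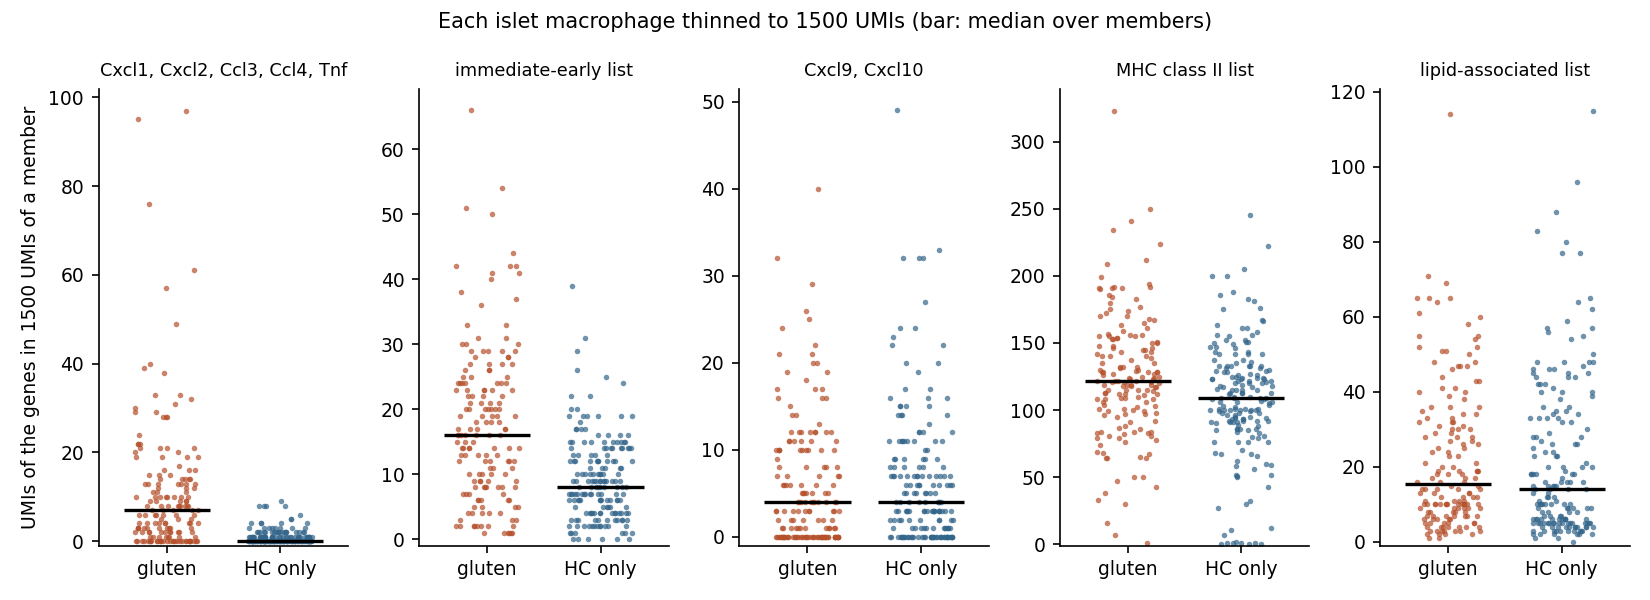
UMIs of 5 gene sets in every macrophage after thinning to 1500 UMIs, gluten left and HC only right in each panel; each point is 1 cell and the bar is the median. The set of Cxcl1, Cxcl2, Ccl3, Ccl4 and Tnf has medians of 7 with gluten and 0 with HC only, and the immediate-early genes 16 and 8, while the MHC class II genes (122 and 109) and the lipid-associated genes (15.5 and 14) overlap almost wholly.

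Immediate-early genes, which cells transcribe within minutes of a stimulus without making new protein, were higher with gluten as a group. All 24 measured had a log2 ratio above 0, 12 were at least 2-fold higher and 0 lower, and the median was 0.99 (0.66 to 1.63). Egr1, a zinc finger transcription factor, had 593 CPM with gluten and 128 CPM with HC only, a log2 ratio of 2.21 (2.01 to 2.41). Atf3, a stress-induced factor that limits Toll-like receptor responses, had 645 CPM with gluten and 147.5 CPM with HC only. Among the AP-1 subunits, Junb had 2016 CPM with gluten and 915 CPM with HC only, Fos 1901 and 1006 CPM, and the log2 ratio of Jun was 0.58. The ratios of Maff, Nr4a1, Dusp2, Ier3, Fosb, Ier2 and Klf4 lay between 1.07 for Klf4 and 1.88 for Maff, and Myc was at 0.25. In cells thinned to equal depth, Egr1 was found in 40.2% of macrophages with gluten and 14.9% with HC only, against 12.8% and 11.4% of B cells, and Atf3 in 53.7% and 19.9%. Unthinned, the shares were 75% and 42.0% for Egr1 and 77.4% and 52.5% for Atf3.

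NF-kappa-B pathway genes were divided. Of 18 measured, 5 were 2-fold or more higher with gluten and 0 lower, with a median of 0.09 (-0.227 to 1.202), near that of all genes. The 5 were Nfkbia, which encodes the inhibitor that NF-kappa-B itself induces, at 1888 CPM with gluten and 821 CPM with HC only, the subunit gene Rel at 182 and 53.7 CPM, and the negative regulators and cofactors Nfkbiz (1.503), Tnfaip3 (1.37) and Nfkbid (1.21, all log2 ratios). The other subunit genes were near 0 or below, with log2 ratios of 0.12 for Rela, 0.40 for Nfkb1, -0.25 for Relb and -0.29 for Nfkb2. Bcl3 and Birc3 stood lowest, at -0.86 and -0.85.

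Heat shock genes were also higher with gluten as a list. All 12 heat shock genes measured had a log2 ratio above 0, 4 of them at least 2-fold higher with gluten, with a median of 0.77 (0.366 to 1.202). Hsp90aa1, an abundant cytosolic chaperone, had 584 CPM with gluten and 279 CPM with HC only, Hsph1 and Hspa1b had log2 ratios of 1.51 and 1.202, and Hspa8 was at 0.61. Of 14 genes of the unfolded protein response only Ppp1r15a, which restores translation and is also induced early by stimuli, was at least 2-fold higher (462.5 CPM with gluten, 141 CPM with HC only), and the median was 0.07. Immediate-early and heat shock genes can be induced while tissue is dissociated, and the same lists had medians of 0.39 and 0.33 in B cells, where all genes had a median of -0.16, and 0.38 and 0.53 in T cells, where all genes had -0.06. The part of the preparation in the macrophage values was not tested.

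**Figure D3:**
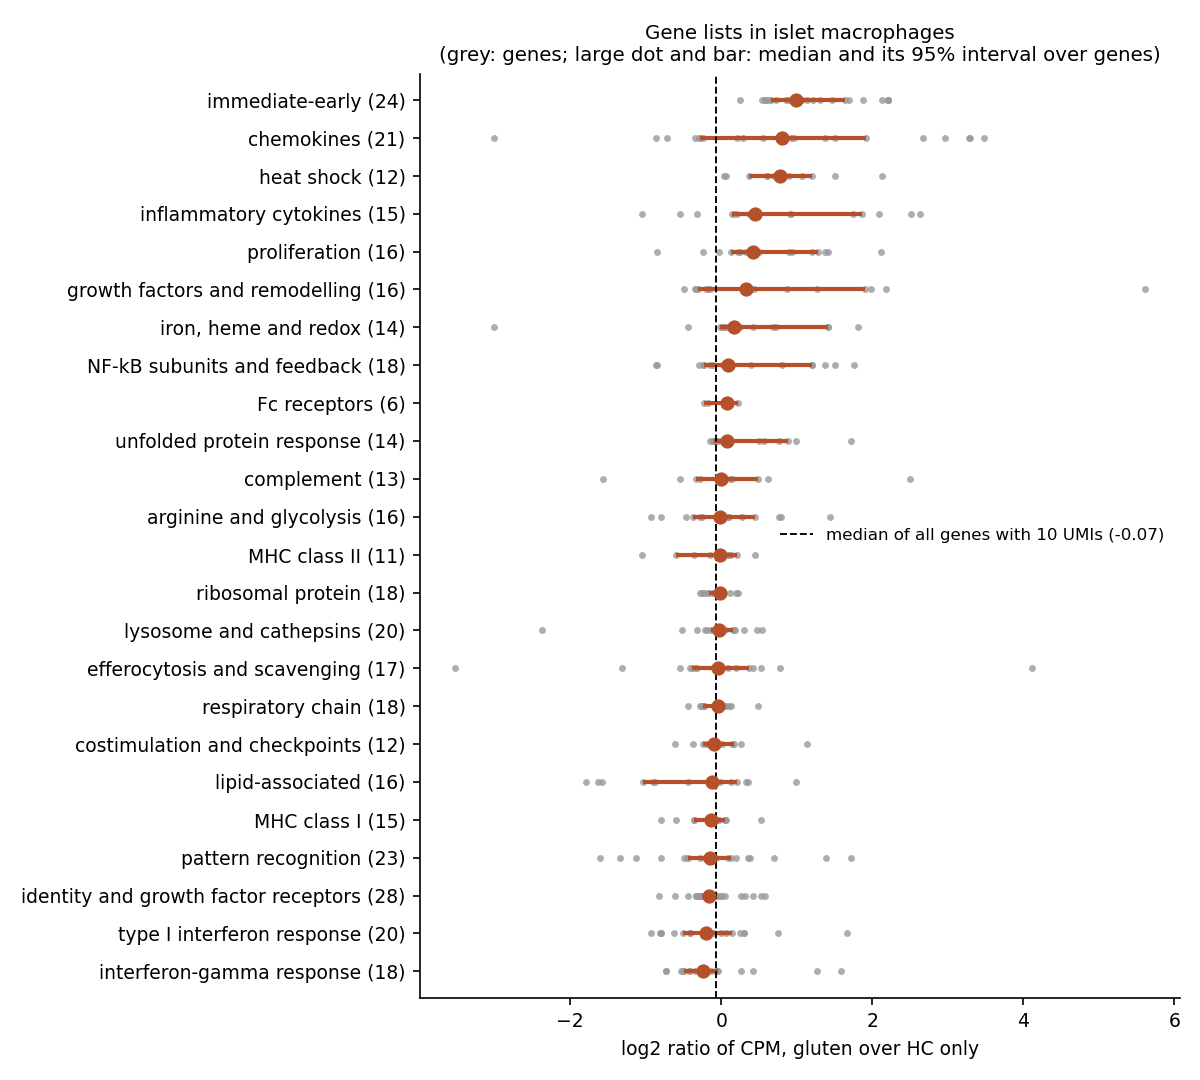
Median log2 ratio of gluten over HC only in macrophages for 24 gene lists, with the 95% interval over the genes of each list; the dashed line marks the median of all genes at -0.07. Immediate-early genes (0.99), chemokines (0.81) and heat shock genes (0.77) have the highest medians, and most lists of macrophage function lie near 0.

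Receptors and effectors of innate immunity differed gene by gene. Of 23 pattern recognition genes, 2 were 2-fold or more higher with gluten and 3 lower, with a median of -0.15. By the same rule 5.96% of all genes were higher and 6.18% lower. The higher ones were Cd14, the co-receptor for lipopolysaccharide, at 393 CPM with gluten and 151 CPM with HC only, and Clec4e, a C-type lectin receptor that senses dead cells, with a log2 ratio of 1.71. Tlr2, which binds bacterial lipoproteins, was at 0.70 and Tlr4, which signals for lipopolysaccharide, at -0.79. Tlr6 (-1.60), Tlr13 (-1.34) and Nod2 (-1.13) were the lower ones. Among 14 genes of iron handling and redox defence, 3 were 2-fold or more higher with gluten and 1 lower, with a median of 0.17 (-0.010 to 1.41). The metallothionein gene Mt1 had 566 CPM with gluten and 212 CPM with HC only, Hmox1, the haem-degrading oxygenase, 187 and 70.2 CPM, and Mt2 a log2 ratio of 1.82. The lower one was Tfrc, the transferrin receptor, with 1 UMI with gluten and 14 with HC only, a log2 ratio of -3.01 (-8.42 to -0.30).

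Growth factor and matrix remodelling genes had 5 of 16 at least 2-fold higher with gluten and a median of 0.33. Mmp12, the macrophage elastase, had 113 UMIs in 25 macrophages with gluten and 4 UMIs in 3 macrophages with HC only, a log2 ratio of 5.61 (4.22 to 7.51). At equal depth it was found in 6.10% of macrophages with gluten (2.96 to 10.9) and 0 of 181 with HC only (0 to 2.02), so that most gluten macrophages also lacked it at that depth. Gdf15, a stress-induced cytokine, had 245 CPM with gluten and 53.7 CPM with HC only, and Vegfa, the vascular growth factor, a log2 ratio of 1.91. Proliferation genes had 5 of 16 at least 2-fold higher, with a median of 0.42 (0.13 to 1.28). By the same rule 5.96% of all genes were higher. The proliferation list had medians of 0.66 in type 2 dendritic cells, 0.50 in B cells and -0.28 in T cells, so its rise was not particular to macrophages. Mki67, a nuclear antigen of cycling cells, had 65.4 CPM with gluten and 28.4 CPM with HC only. Thinned macrophages with Mki67, Top2a or Birc5 were 10.98% with gluten and 5.52% with HC only, and the interval of the difference (-0.40 to 11.7 points) includes 0.

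Genes that define macrophages differed little. Of the identity genes, 28 in all, 0 were at least 2-fold apart, with a median of -0.16. Csf1r, the receptor for the growth factor on which macrophages depend, was at -0.28, the transcription factor Spi1 at -0.07, Adgre1 at 0.27 and Ms4a7 at -0.19. Cx3cr1, the fractalkine receptor, had 226 CPM with gluten and 347 CPM with HC only, a log2 ratio of -0.62. Of 15 MHC class I genes 0 were apart, with a median of -0.14.

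Of 11 MHC class II genes, which present antigen to CD4+ T cells, 0 were 2-fold or more higher with gluten and 1 lower, with a median of -0.014 (-0.60 to 0.21). The lower one was H2-Eb2, at 5 UMIs with gluten and 18 with HC only, a log2 ratio of -1.06 (-2.84 to 0.43), and H2-Oa was at -0.60. Cd74, the invariant chain, was among the most abundant transcripts with 37796 CPM with gluten and 32633 CPM with HC only. H2-Aa, H2-Ab1 and H2-Eb1 had log2 ratios of 0.08, 0.10 and 0.12, and Ciita, their master regulator, -0.37. The median macrophage held 122 UMIs of the list in 1500 with gluten and 109 with HC only. Of 12 costimulation and checkpoint genes, which include inhibitory ones, 1, Lilrb4a (1.13), was at least 2-fold higher. Cd40 was at -0.61 and Cd86 at 0.17.

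Interferon response genes had list medians below 0 whose intervals include the all-gene median of -0.07. The interferon gamma list of 18 genes had a median of -0.24 (-0.49 to -0.05), with the guanylate-binding protein gene Gbp5 and the GTPase gene Iigp1 both at -0.73, and Irf1 at 0.42. It held 2 genes at least 2-fold higher with gluten, Acod1 (1.59), which makes itaconate, and Ubd (1.27), of which 1 macrophage held most UMIs. The 20 genes of the type I interferon response had a median of -0.21 (-0.51 to 0.15), with Isg15 at 0.75 and Rsad2, at 22 UMIs with gluten and 12 with HC only, the only one at least 2-fold higher.

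Complement, lysosomal and scavenging genes were near 0 as lists, and few of them were 2-fold apart. By the same rule 5.96% of all genes were higher and 6.18% lower. The complement list includes C1qa, C1qb and C1qc, which the rule used. It (13 genes) had a median of 0.0022, with 1 gene 2-fold or more higher and 1 lower. The higher one was Cd55, which limits complement on the cell surface, at 13 UMIs with gluten and 4 with HC only, a log2 ratio of 2.49 (0.80 to 4.57). C3 had 513 CPM with gluten and 650 CPM with HC only, while Cfb, factor B of the alternative pathway, was lower at 26.9 and 79.5 CPM, a log2 ratio of -1.56 (-2.13 to -1.03). Lysosomal genes (20) had a median of -0.03, with 1 lower (Atp6v0d2, a proton pump subunit, at 2 and 18 UMIs), although Lyz2 itself had 13328 CPM with gluten and 19043 CPM with HC only, a log2 ratio of -0.51, and Cst3, the protease inhibitor cystatin C, was higher at 7350 and 5061 CPM. Efferocytosis and scavenger genes (17) had a median of -0.04, with 1 gene 2-fold or more higher and 2 lower. Timd4, a receptor for phosphatidylserine on dying cells and a marker of long-lived resident macrophages, was lower, with 16 UMIs with gluten and 69 with HC only, a log2 ratio of -1.32. Lyve1 had 30 UMIs in 3 macrophages with gluten and 0 UMIs with HC only. Cd209f, a lectin gene, had 2 UMIs with gluten and 40 with HC only, of which 1 macrophage held 95%.

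Lipid-associated genes, known from foam cells and from macrophages that clear lipid, included genes that were lower with gluten. Of 16 measured, 4 were at least 2-fold lower with gluten and 0 higher, and the median was -0.12 (-1.03 to 0.21), near that of all genes. Cst7, the protease inhibitor cystatin F, had 49.2 CPM with gluten and 170 CPM with HC only, a log2 ratio of -1.79 (-2.19 to -1.40), and was found in 30 macrophages with gluten and 62 with HC only. Gpnmb, a lysosome-associated glycoprotein, had 32.3 CPM with gluten and 96.4 CPM with HC only, a log2 ratio of -1.58 (-2.09 to -1.09), in 12 and 25 macrophages. Gpnmb rested on few of these, as 5 macrophages held 81.0% of its UMIs with gluten and 71.4% with HC only. The other lower genes, Fabp4 and Spp1, also rested on few cells. Fabp4 was found in only 6 macrophages with gluten and 5 with HC only, and 1 macrophage held 75% and 50.3% of its UMIs. Spp1, also a marker of duct cells, had 20 and 71 UMIs, and 5 macrophages held 85.9% of those with HC only. T cells held more Spp1 than macrophages, 86.2 CPM with gluten and 285 CPM with HC only. Fabp5, a fatty acid binding protein and the most abundant of them after Apoe, had 1621 CPM with gluten and 3034 CPM with HC only, within 2-fold. At equal depth the median macrophage held 15.5 UMIs of the whole list in 1500 with gluten and 14 with HC only. Cst7 alone was found in 3.05% of thinned macrophages with gluten and 13.8% with HC only. Plin2, which coats lipid droplets, went the other way, with 259 CPM with gluten and 131 CPM with HC only, a log2 ratio of 0.99 (0.76 to 1.22). Apoe, the apolipoprotein that exports cholesterol, had 9501 CPM with gluten and 8722 CPM with HC only, and Trem2, the lipid receptor of such macrophages, a log2 ratio of 0.35.

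Other genes lower with gluten differed in how widely they were spread over cells. Clec2d, a C-type lectin that inhibits natural killer cells, had 41 UMIs in 29 macrophages with gluten and 235 in 111 with HC only, a log2 ratio of -1.73. Chil1, a chitinase-like protein, had 211 UMIs in 32 macrophages with gluten and 842 in 60 with HC only, a log2 ratio of -1.20. Pla2g2d, a secreted phospholipase, had 293 UMIs in 14 and 1083 UMIs in 35, a log2 ratio of -1.09. With gluten and HC only, 5 macrophages held 63.5% and 53.1% of the Chil1 UMIs. For Pla2g2d they held 72.0% and 40.7%. At equal depth Pla2g2d was found in 5.49% of macrophages with gluten and 15.5% with HC only. Tagln and Acta2, contractile genes of smooth muscle, had 6 and 6 UMIs with gluten and 139 and 100 UMIs with HC only, but in HC-only macrophages 1 cell held 49.6% of Tagln and 89.0% of Acta2.

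Cxcl2, Tnf, Egr1 and Nfkbia were higher with gluten in shallow and in deep macrophages. Macrophages with 1500 to below 5000 UMIs were 52 with gluten and 22 with HC only, those with 5000 to below 10000 UMIs 62 and 35, and those with at least 10000 UMIs 50 and 124. The log2 ratio of Cxcl2 was 5.69, 3.19 and 2.91 from the shallowest to the deepest of these groups, and that of Tnf 3.56, 2.60 and 2.14. Egr1 had 3.92, 1.47 and 2.19, and Nfkbia 1.78, 1.34 and 1.22. The smallest of these ratios is more than 2-fold. Among the lower genes, Cst7 had -0.25 (-2.48 to 2.38, from 6 UMIs with gluten and 3 with HC only), -1.19 and -1.52, so that its shallowest value is not resolved from 0. Fabp4 had 21 UMIs with gluten and 0 with HC only in the shallowest group and 6 and 151 in the deepest. Chil1 had 5 and 0 UMIs in the shallowest group, then log2 ratios of -0.56 and -1.24, and Pla2g2d had 0 and 48 UMIs, then 0.18 and -0.76. The lower values of these 3 genes therefore did not hold at every depth. The small lower values of Cxcl9 and Ccl5 depended on depth: Cxcl9 had -1.02, -0.45 and -0.01, and Ccl5 was at -1.56, 1.05 and -1.24.

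**Figure D4:**
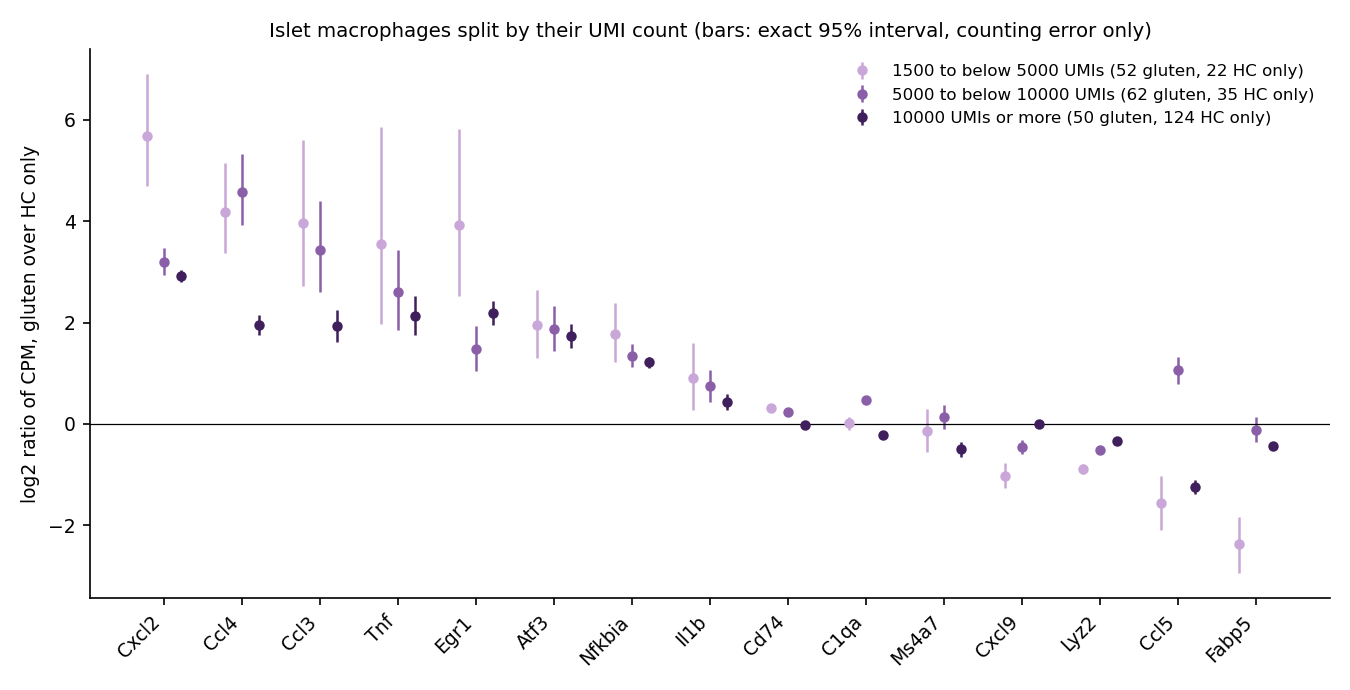
Log2 ratio of gluten over HC only for 15 genes in macrophages grouped by their UMIs (1500 to below 5000, 5000 to below 10000, 10000 or more); each point is 1 gene in 1 depth group, with its exact 95% interval. Cxcl2, Ccl4, Ccl3, Tnf and Egr1 lie above 1 in every group, whereas Cxcl9 nears 0 (-0.01) in the deepest.

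Within each library the macrophages varied along shared lines. The set of Cxcl1, Cxcl2, Ccl3, Ccl4 and Tnf went with the immediate-early genes from cell to cell, with Spearman's rho 0.64 over 164 macrophages with gluten and 0.34 over 181 with HC only, and with NF-kappa-B pathway genes at 0.54 and 0.14. Its rho with Cxcl9 and Cxcl10 was 0.03 and -0.02. Complement with lysosomal genes had 0.44 with gluten and 0.45 with HC only, and lipid-associated with lysosomal genes 0.40 and 0.54. The complement list holds C1qa, C1qb and C1qc, which the rule used. In 1500 UMIs they averaged 16.0, 10.9 and 6.77 with gluten, where the whole list averaged 35.2. With HC only they averaged 15.2, 9.73 and 6.42, and the whole list 33.2. The complement value therefore largely describes the genes that chose the cells. The rho values are across cells of 1 library each, thinned to the same depth, and are descriptions. The variance of Cxcl2 over its mean at 1500 UMIs was 12.96 with gluten and 3.15 with HC only. Lyz2 (27.7 and 37.1), Ccl8 (31.3 and 25.04) and Apoe (19.9 and 22.1) had high values in both libraries, while differing by less than 2-fold between them.

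Other cells of the same libraries, chosen by marker genes of their type, were compared for the fast chemokine genes. The HC-only monocytes include 1 barcode rich in acinar UMIs, and delta and PP cell markers summed to 8206 CPM in the cDC2 with gluten and 253 CPM in those with HC only. The CPM of Cxcl2 was 1875 in 11 monocytes with gluten and 42.6 in 19 with HC only, and 1030 in 22 type 2 dendritic cells (cDC2) with gluten and 13.6 in 22 with HC only. Lymphocytes held Cxcl2 at 56.5 CPM with gluten and 9.1 CPM with HC only in T cells, and 37.5 and 0 CPM in B cells. At equal depth it was found in 1.28% and 0.284% of T cells and 1.44% and 0% of B cells, shares read here as background. Tnf had 252 CPM with gluten and 36.6 CPM with HC only in monocytes. For Tnf, B cells had a log2 ratio of -1.09 (-1.97 to -0.26) and T cells 0.28 (-0.07 to 0.62). The interval of Tnf in macrophages (2.32 to 2.95) lay above both. The chemokine list had medians of 0.27 in monocytes, -0.97 in cDC2, 0.86 in B cells and 0.84 in T cells, against 0.81 in macrophages, so as a list it stood no higher in macrophages than in lymphocytes. The immediate-early list had medians of 0.17 in monocytes, 0.85 in cDC2, 0.39 in B cells and 0.38 in T cells, against 0.99 in macrophages. For the inflammatory cytokine list they were 1.42 in monocytes, 0.77 in cDC2, 0.19 in B cells and 0.39 in T cells, against 0.45 in macrophages.

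**Figure D5:**
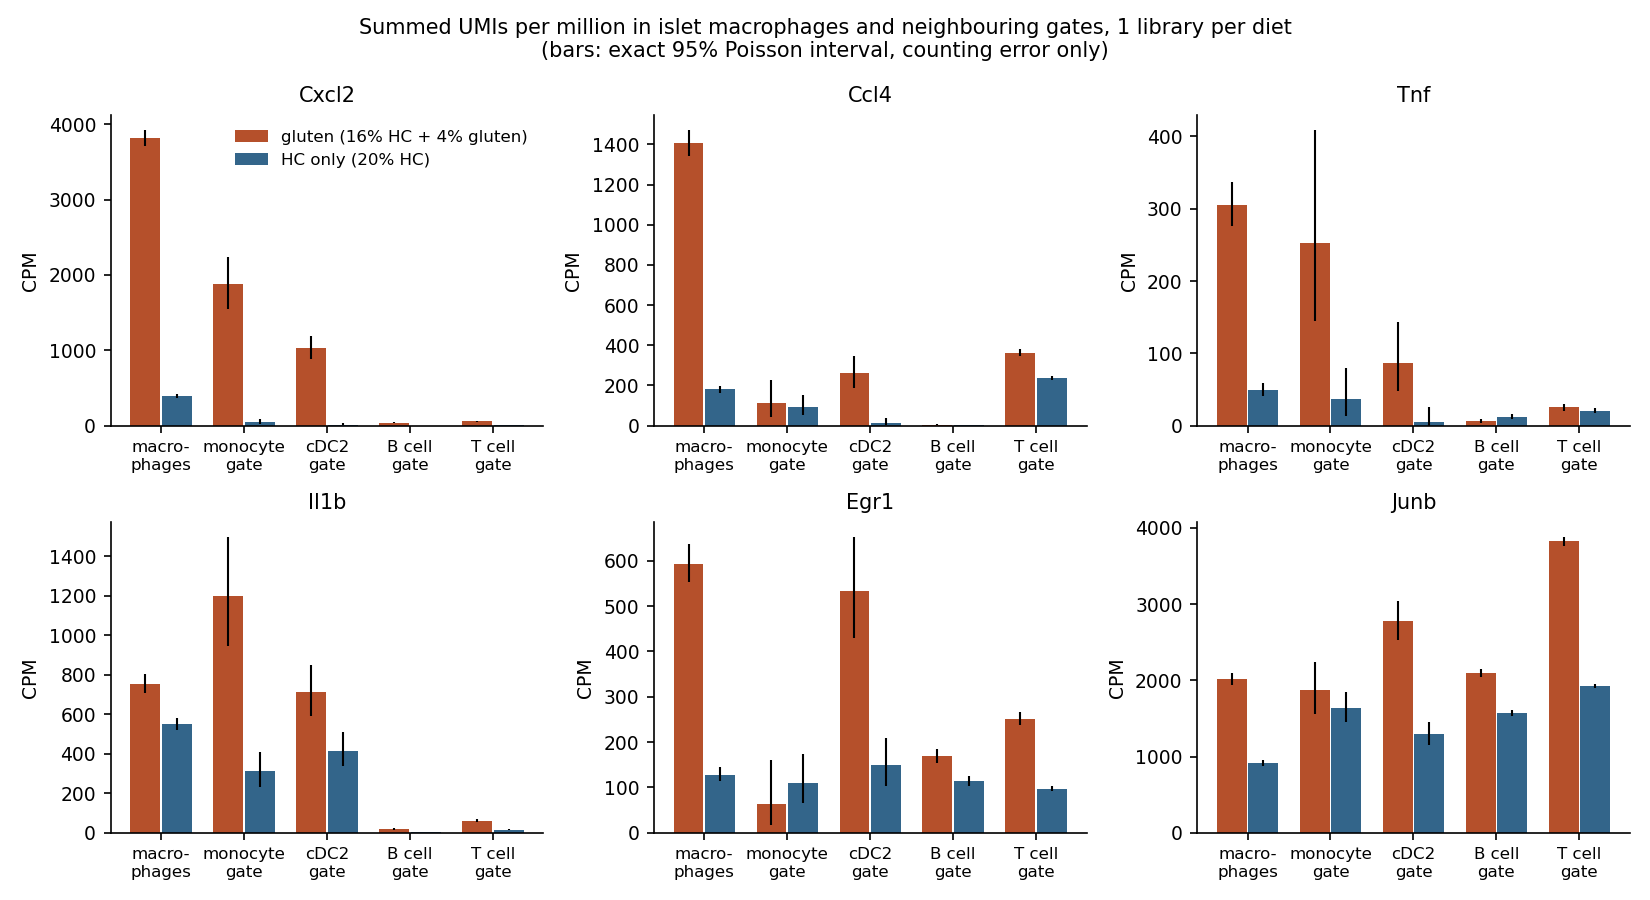
CPM of 6 genes in macrophages, monocytes, cDC2, B cells and T cells, gluten left of HC only; bars are UMI sums per 1000000 and error bars exact 95% Poisson intervals. Cxcl2 stands at 3822 with gluten and 392 with HC only in macrophages and at 56.5 and 9.1 in T cells.

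Markers of other cells were also summed over the macrophages, and their part in the differences was not tested. Endothelial markers summed to 241 CPM with gluten and 188 CPM with HC only, mesenchymal markers to 549 and 426 CPM, T cell markers to 33.1 and 20.4 CPM, B cell markers to 26.9 and 40.0 CPM, and beta cell markers to 7495 and 6851 CPM. Monocyte markers summed to 149 CPM with gluten and 239 CPM with HC only, and neutrophil markers to 50.8 and 59.5 CPM, with 3 and 2 of the 6 neutrophil genes at 0. Natural killer cell markers summed to 6.16 and 0.444 CPM, and the acinar markers are given above. Markers of type 1 dendritic cells summed to 304 CPM with gluten and 337 CPM with HC only, against 347 and 226 CPM in the cDC2. Markers of mature dendritic cells summed to 182 and 312 CPM, against 28.9 and 127 CPM in the cDC2. Markers of cDC2 summed to 145 and 176 CPM, against 1059 and 1082 CPM in the cDC2 themselves. These sums rested on a few genes, given here for macrophages with gluten and HC only. Of the type 1 markers, Cadm1 had 132 and 133 CPM, Naaa 102 and 139, and Xcr1 9.23 and 9.33. Of the mature markers, Il4i1 had 120 and 196 CPM, Fscn1 40.8 and 75.1, and Ccl22 0.77 and 6.22. Of the cDC2 markers, Mgl2 had 103 and 114 CPM, Clec10a 34.6 and 50.2, Flt3 1.54 and 3.55, and Cd209a 0 and 2.66.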

How the data were processed

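The authors deposited raw UMI counts per gene and barcode for each library, as matrices of 31053 genes; per the submitters' processing notes they were made with Cell Ranger 4.0.0 on mm10 from 10x 3' v3 libraries. The sources used here do not give the annotation release or the rule for keeping barcodes. Gene positions come from GENCODE vM21 (31011 IDs matched). Counts were summed over the macrophages of each library (Python 3.11.15, numpy 2.4.6, pandas 2.3.3) and divided by their total. Log2 ratios carry exact conditional binomial intervals, shares carry Clopper-Pearson intervals, and their differences Newcombe's (scipy 1.17.1); the procedure was checked on simulated data. Thinning drew 1500 UMIs per cell. Doublets were left in: Scrublet called 94 barcodes (1.15%) with gluten and 4 (0.0516%) with HC only, and the second call has not worked. Named genes were the 12 in each direction whose interval lay farthest from 0 (at least 50 UMIs; without acinar, hormone, mitochondrial, immunoglobulin, T cell receptor and ribosomal protein genes), the 20 most abundant, and members of the lists. The macrophages, lists and comparisons were chosen with earlier results of these data known. Alternatives, among them edgeR 4.0.16 TMM scaling (R 4.3.3), are given in the closing section. The other cell types of the libraries were used only as a background.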

Additional observations from a re-analysis of the deposited data

How the results depend on the processing

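No paired analysis was possible because each diet has 1 library and the result comes from no test. Of the alternative values for shares, counts and list medians, 447 stayed close to the values above and 17 moved; for named genes 738 stayed, 92 moved and 2 reversed, and the causes were not tested. At 3000 UMIs or more, macrophages were 3.27% of filtered HC-only barcodes, and 8.23% with gluten and 7.26% with HC only of those under the hormone limit. With hormones under 2% the share was 5.99% with gluten, 2.02 percentage points above HC only (0.929 to 3.17), against 0.552 above. The genes higher and lower with gluten numbered 37 and 6 in thinned cells, 75 and 28 at 100 UMIs or more, and 888 and 899 without a filter, against 121 and 90; within 5000 to 15000 UMIs 50 were lower. Genes higher with gluten were 57.3% of those apart, 86.0% in thinned cells and 72.8% at 100 UMIs; TMM and median-of-ratios scaling shifted all ratios by 0.03 and 0.04. The identity median was -0.050 in thinned cells; within 5000 to 15000 UMIs the medians were 0.65 for immediate-early, 2.41 for proliferation and -0.18 for ribosomal genes, the last 0.020 with median-of-ratios scaling. Acta2 reversed to 2.38 without macrophages that hold endothelial or mesenchymal UMIs and to 0.38 within 5000 to 15000 UMIs. Without the macrophage holding most of their UMIs, the log2 ratios were 2.38 for Glycam1, 1.74 for Lyz1, 2.32 for Ccl24, -1.67 for Acta2 and -2.63 for Fabp4. Genes with few UMIs have wide counting intervals.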

Other observations

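A small number of macrophages carried little MHC class II. Those with at most 20 UMIs of the list in 1500, a limit chosen after the values were seen, were 3 of 164 with gluten (1.83%, 0.379 to 5.25) and 11 of 181 with HC only (6.08%, 3.07 to 10.6), and the intervals overlap. They held 8 of the 16 Timd4 UMIs with gluten and 40 of the 69 with HC only. Timd4 was found in 2 of the 3 and 7 of the 11 of them, against 6 of 161 and 16 of 170 of the other macrophages with gluten and HC only. Their Lyz2 level was 42657 CPM with gluten and 38682 CPM with HC only, against 12325 and 17723 CPM in the others. Adgre1, the F4/80 gene, was found in 1 of the 3 and 2 of the 11.

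Some of the largest ratios rested on single macrophages. Glycam1, a mucin of high endothelial venules, had 846 UMIs with gluten and 4 with HC only, a log2 ratio of 8.52, and 1 macrophage held 99.3% of the UMIs with gluten. Lyz1, whose sequence is nearly identical to Lyz2 so that its reads are uncertain, had 711 UMIs with gluten and 164 with HC only, of which 1 macrophage held 79.6% and 54.3%. B930036N10Rik, in contrast, had 210 UMIs in 65 macrophages with gluten and 37 UMIs in 29 with HC only, a log2 ratio of 3.30. Gm5150 had 5 UMIs with gluten and 53 with HC only.

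Apoe and Ms4a7 went together across macrophages, with Spearman's rho 0.44 with gluten (164 cells) and 0.42 with HC only (181 cells), and Tgfbi ran opposite to Apoe at -0.36 and -0.33. Cxcl2 and Cxcl10 had rho 0.37 with gluten and 0.13 with HC only. These share library and depth and are descriptions.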
